A study of Mus musculus with 20 samples.

Results

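The 4 genes described here encode the organic cation and carnitine transporters of the kidney: Slc22a2 (OCT2), Slc22a4 (OCTN1), Slc22a5 (OCTN2) and Slc47a1 (MATE1). They were taken by gene symbol from the 55822 genes of a kidney RNA sequencing table, with earlier results of these data known, and all 4 passed the filter on low counts. Poly(A) RNA of whole kidneys was compared between male mice of the inbred strain C57BL/6J that received phosphate-buffered saline (PBS, the controls) and mice that received puberulic acid at 1 mg per day, with 5 samples in each group. The labels do not say that each sample came from a different mouse, so the p-values below measure the spread between these samples. All were 8 weeks old, received 1 dose on each of 6 days and gave their kidneys on day 7. Puberulic acid is a tropolone from Penicillium moulds. The labels name the oral route in one place and gavage or intraperitoneal injection in another, so the route used for these samples is not known. The labels also describe 2 groups given the supplement Choleste-Help at 1000 mg per day, from a lot called normal and a lot called toxic. The names of those 10 sample columns do not tell the lots apart, and they are not analysed here.

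Secretion of organic cations by the kidney runs through the proximal tubule cell in 2 steps. OCT2 takes cations such as creatinine, metformin and cisplatin from the blood side, driven by the membrane potential. MATE1 in the brush border then passes them to the urine in exchange for protons. The OCTN proteins also sit in the brush border: OCTN2 reabsorbs carnitine from the filtrate together with sodium, and mice without it lose carnitine in the urine, while OCTN1 is best known as a carrier of the dietary antioxidant ergothioneine. Carnitine carries long-chain fatty acids into mitochondria, the main fuel of this cell.

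Transcripts of all 4 transporters fell after puberulic acid, and they fell by unequal factors. Slc22a2 and Slc22a5 fell 5.90-fold and 5.73-fold, whereas Slc47a1 and Slc22a4 fell 2.31-fold and 1.97-fold. For each of the 4 genes the highest puberulic acid sample lay below the lowest control. Beside these 4 of 4, edgeR's quasi-likelihood test (adjusted p under 0.05) called 31.1% of the 16266 tested genes lower and 65.3% changed in either direction. Groups did not overlap for 24.0% with puberulic acid lower and for 50.1% in either direction. A call alone was therefore common in these kidneys. A call with a fall of at least 4-fold, as for Slc22a2 and Slc22a5, was made for 3.78%. By rank, 1.86% of the tested genes had a lower log2 fold change than Slc22a2 and 1.98% a lower one than Slc22a5, against 10.3% for Slc47a1 and 14.5% for Slc22a4. These are bulk samples, so fewer cells of a type and less RNA per cell cannot be told apart.

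Promoter letters are shown because Slc22a2 and Slc22a5 fell by much the same factor and Slc22a4, of the same family, fell less. RefSeq (GRCm38.p6) entries were found for 3 of the 4 genes, Slc47a1 being the one without. Each stretch lies within the 250 bases before a RefSeq transcription start. Bases inside annotated exons, or inside the RefSeq gene span where the window reaches into it, are not printed. Capitals mark matches, on either strand, to the GC box, CCAAT box and E-box letters spelled out after the sequences.
Slc22a2 (chr17:12583939-12584131, plus strand): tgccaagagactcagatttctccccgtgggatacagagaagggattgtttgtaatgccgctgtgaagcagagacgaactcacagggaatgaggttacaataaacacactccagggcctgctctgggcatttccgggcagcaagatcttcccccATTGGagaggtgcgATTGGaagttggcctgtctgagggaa
Slc22a5 (chr11:53891797-53891953, minus strand): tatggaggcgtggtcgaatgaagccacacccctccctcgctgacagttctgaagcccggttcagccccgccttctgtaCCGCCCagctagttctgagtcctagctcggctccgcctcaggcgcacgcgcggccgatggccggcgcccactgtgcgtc
Slc22a4 (chr11:54028105-54028354, minus strand): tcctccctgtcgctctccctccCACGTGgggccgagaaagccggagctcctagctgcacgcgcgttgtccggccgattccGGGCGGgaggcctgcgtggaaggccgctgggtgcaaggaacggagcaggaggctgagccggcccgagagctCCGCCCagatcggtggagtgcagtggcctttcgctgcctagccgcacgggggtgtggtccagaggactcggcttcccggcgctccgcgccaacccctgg

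In base composition Slc22a5 was nearer to Slc22a4 than to Slc22a2, whereas in fold change it was nearer to Slc22a2. Over the 250 bases, G and C made up 73.6% in Slc22a5 and 71.2% in Slc22a4, more than in 94.7% and 92.2% of the 32851 promoters of the table, and 51.6% in Slc22a2, close to the median of 52.4%. The 250 bases held 30 CG dinucleotides in Slc22a5, 26 in Slc22a4 and 6 in Slc22a2. The GC box letters GGGCGG occurred 3 times in Slc22a5, once in its printed part, and 2 times in Slc22a4. They are present in 32.7% of all promoters of this length. Slc22a2 alone of the 3 held the CCAAT box letters, 2 times, and 33.8% of promoters hold CCAAT. Slc22a4 alone held the E-box letters CACGTG, which 6.02% of promoters hold. None of these matches overlapped. A nuclear receptor site of the letters AGGTCA, present in 14% of all promoters, was searched without a match in these windows. No match was found either for the TATA box letters TATAAA, present in 12.4%. This says only that these exact letters are not in the windows.

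CPM below are estimated counts scaled to a common library size, corrected by trimmed means of M-values (TMM). Total estimated counts ran from 18409877 to 24705587 per library, and each transporter had at least 479 counts in every library, and the spread between samples exceeded counting error. The kidney label was matched by its markers: Umod of the thick limb, Aqp2 of the collecting duct and Nphs1 of podocytes were detected in all 10 libraries, and so were all 14 proximal tubule markers. Havcr1, the gene of the kidney injury molecule KIM-1, averaged 1.99 ± 0.37 CPM in the PBS group and 1219 ± 114 CPM in the treated group (SD, n = 5 per group). Puberulic acid replicate 1 stood apart from the other 4 treated samples. Its summed proximal tubule marker level was 3150 CPM, where the others had 1670 to 1827 CPM and the controls 17555 to 22482 CPM. Some results, the log2 fold changes of the transporters among them, are therefore also given without it.

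Slc22a2 (ENSMUSG00000040966), the basolateral uptake transporter, stood at 383.4, 483.1, 465.0, 460.1 and 377.2 CPM in control replicates 1 to 5. In puberulic acid replicates 1 to 5 it stood at 96.2, 69.6, 63.1, 72.8 and 65.7 CPM. All treated samples were far below the controls, and replicate 1 was the highest of them. The mean went from 433.7 ± 49.6 to 73.5 ± 13.2 CPM (SD, n = 5 per group), with a log2 fold change of -2.56 ± 0.13 (SE, edgeR adjusted p = 3.09e-08).

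Slc47a1 (ENSMUSG00000010122), which encodes the brush border exporter MATE1, stood at 426.0, 550.0, 562.4, 552.2 and 510.3 CPM in control replicates 1 to 5. The puberulic acid replicates had 274.2, 219.5, 191.3, 227.9 and 214.1 CPM. The groups were separate, with control replicate 1 and puberulic acid replicate 1 nearest to each other. The mean went from 520.2 ± 56.3 to 225.4 ± 30.5 CPM (SD, n = 5 per group), with a log2 fold change of -1.21 ± 0.11 (SE, edgeR adjusted p = 2.42e-06).

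Slc22a5 (ENSMUSG00000018900), the sodium-dependent carnitine transporter gene, stood at 279.5, 302.4, 251.8, 268.5 and 364.1 CPM in control replicates 1 to 5. With puberulic acid it stood at 75.0, 50.8, 42.8, 41.5 and 45.9 CPM in replicates 1 to 5. Control replicate 5 was the highest control, and replicate 1 again the highest treated sample. The mean went from 293.3 ± 43.7 to 51.2 ± 13.8 CPM (SD, n = 5 per group), with a log2 fold change of -2.52 ± 0.17 (SE, edgeR adjusted p = 2.25e-07).

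Slc22a4 (ENSMUSG00000020334), the ergothioneine carrier gene, was the lowest of the set, at 47.2, 56.8, 45.1, 38.7 and 34.4 CPM in control replicates 1 to 5. The puberulic acid replicates had 26.6, 20.4, 20.8, 21.1 and 24.0 CPM. Here the groups came closest, with control replicate 5 at 34.4 CPM and puberulic acid replicate 1 at 26.6 CPM. The mean went from 44.4 ± 8.59 to 22.6 ± 2.68 CPM (SD, n = 5 per group), with a log2 fold change of -0.98 ± 0.14 (SE, edgeR adjusted p = 5.50e-05).

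**Figure D1:**
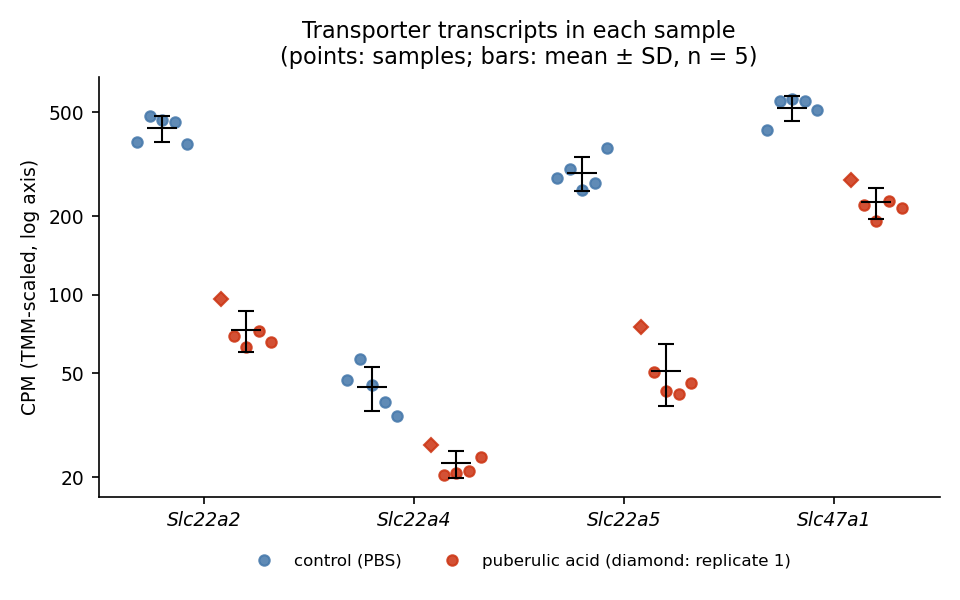
CPM of Slc22a2, Slc22a4, Slc22a5 and Slc47a1 on a log axis in each of the 5 control (blue) and 5 puberulic acid (red) samples, with the mean and SD of each group as black bars and puberulic acid replicate 1 drawn as a diamond. For every gene the red points lie below the blue ones, and the gap is wide for Slc22a2 and Slc22a5 and narrow for Slc22a4.

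All 4 log2 fold changes were larger in size without puberulic acid replicate 1: -2.70 for Slc22a2, -1.06 for Slc22a4, -2.72 for Slc22a5 and -1.31 for Slc47a1. Scaling shifts them in the other direction. When only the library totals were used for scaling, the median over the 16266 tested genes moved from 0.05 to 0.56, and the transporters stood at -2.06 (Slc22a2), -0.46 (Slc22a4), -2.01 (Slc22a5) and -0.70 (Slc47a1), all still called lower, with Slc22a4 at an adjusted p of 0.00921 by edgeR.

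Whether the transporters changed by different factors was tested with the log2 ratio of each pair within a library, computed on CPM + 0.5, which hardly depends on scaling. There were 6 pairs, each tested with an exact two-sided permutation test of 5 against 5, whose smallest p-value is 0.00794, and adjusted over the 6. In 4 of the pairs the ratios of the groups did not overlap. Slc22a2 fell relative to Slc47a1, so that the log2 ratio of uptake to export transcript went from -0.26 ± 0.11 to -1.62 ± 0.07 (SD, n = 5 per group), a difference of -1.36 (95% interval -1.49 to -1.22, exact permutation p = 0.00794, adjusted p = 0.0119). This ratio had the smallest SD of the 6 in both groups, and the 5 treated samples, replicate 1 included, lay between -1.70 and -1.51.

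The other 3 pairs that passed the test involve an OCTN gene. Slc22a5 relative to Slc47a1 changed by -1.32 (95% interval -1.72 to -0.95). The log2 ratio of Slc22a4 to Slc22a5, which encode the 2 OCTN proteins described here, went from -2.72 ± 0.40 to -1.14 ± 0.24 (SD, n = 5 per group), a difference of 1.58 (95% interval 1.11 to 2.09). Slc22a2 relative to Slc22a4 changed by -1.62 (95% interval -1.92 to -1.27). Each of these had an exact permutation p of 0.00794 and an adjusted p of 0.0119.

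No difference was found in the remaining pairs. Slc22a2 relative to Slc22a5 differed by -0.03 (95% interval -0.37 to 0.40, exact permutation adjusted p = 0.865), so unequal changes of a size inside that interval could not be detected. Slc22a4 relative to Slc47a1 differed by 0.26 (95% interval -0.15 to 0.61, exact permutation adjusted p = 0.181).

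**Figure D2:**
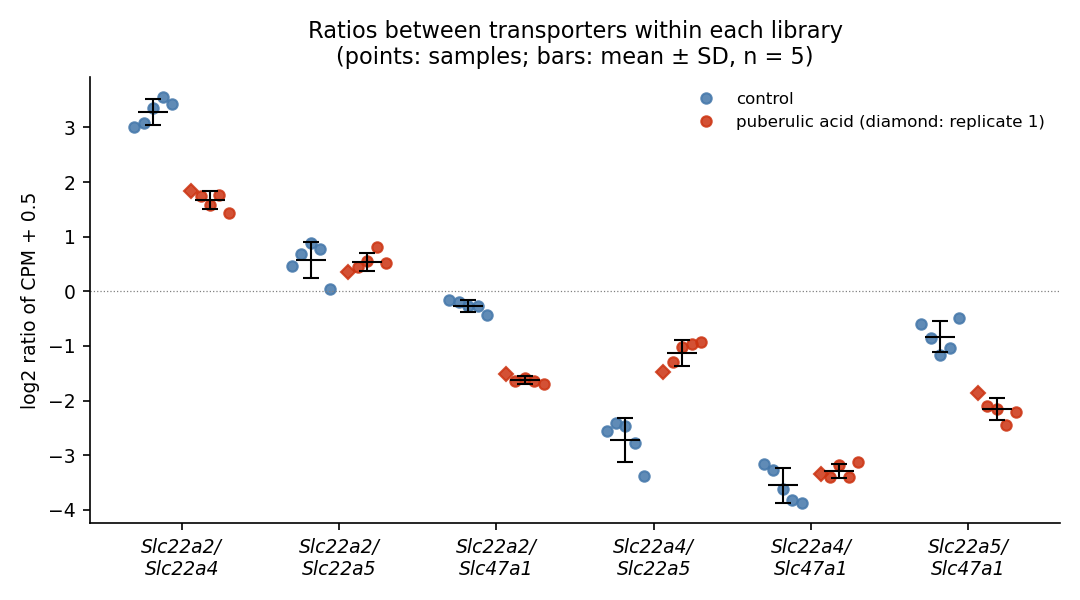
Log2 ratio of CPM + 0.5 for the 6 pairs of transporters within each library, with controls in blue, puberulic acid in red, the mean and SD as black bars and puberulic acid replicate 1 as a diamond. The groups are apart for 4 pairs and overlap for Slc22a2/Slc22a5 and Slc22a4/Slc47a1.

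Levels of different genes were compared per length, as CPM per kilobase of merged exons in the GENCODE M21 annotation. In controls the order of the means was Slc22a2 at 174.7, Slc47a1 at 153.8, Slc22a5 at 95.5 and Slc22a4 at 17.4 CPM per kilobase. The ranges of Slc22a2 (151.9 to 194.6) and Slc47a1 (125.9 to 166.2) overlapped, but within each of the 5 control libraries Slc22a2 was the higher, by merged exons and by the longest annotated transcript, and in replicate 5 only narrowly (151.9 against 150.8). With puberulic acid Slc47a1 led at 66.6, followed by Slc22a2 at 29.6, Slc22a5 at 16.7 and Slc22a4 at 8.85 CPM per kilobase. Slc47a1 was above Slc22a2 in all 5 treated samples, again by both lengths.

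**Figure D3:**
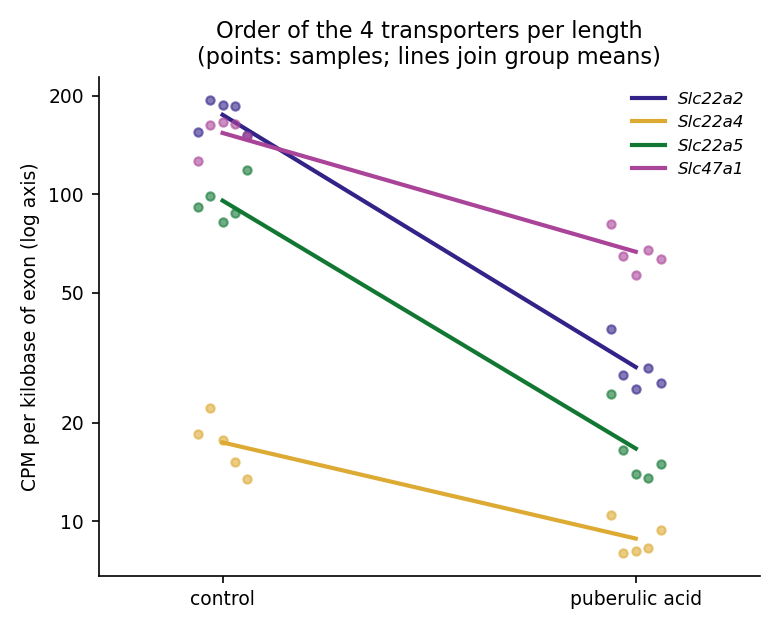
CPM per kilobase of exon on a log axis for the 4 transporters in controls (left) and with puberulic acid (right), with points for samples and lines that join the group means. The line of Slc22a2 crosses that of Slc47a1, from 174.7 against 153.8 in controls to 29.6 against 66.6 with puberulic acid.

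The 14 proximal tubule markers give a scale for these changes, since the transporters are known from the same cells. All 14 were called lower, where the background is 31.1% of genes, with log2 fold changes from -6.76 for Slc22a8 to -1.58 for Slc4a4 and a median of -3.11. Of the 14, 12 had a lower log2 fold change than Slc22a2 and 12 a lower one than Slc22a5, and all 14 had a lower one than Slc47a1 and Slc22a4. The mean log2(CPM + 0.5) of the markers went from 9.86 ± 0.18 to 6.16 ± 0.58 (SD, n = 5 per group), a difference of -3.70.

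Each transporter rose relative to that marker mean within the libraries. The difference was 1.14 for Slc22a2, 1.17 for Slc22a5, 2.49 for Slc47a1 and 2.75 for Slc22a4 on the log2 scale. In all 4 cases every treated sample lay above every control (exact two-sided permutation p = 0.00794, the smallest possible, and the same after adjustment over the 4 genes). With the log2 of the summed marker CPM as the reference the differences were 0.84, 0.87, 2.19 and 2.45 in that order. This comparison was chosen after the results were seen.

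Markers of other cells are given beside these values, and their part in the transporter results was not tested. Their counts are to be read against 31.1% of all tested genes called lower and 34.2% called higher. Among 8 markers of the later nephron (loop of Henle, distal tubule, collecting duct), 6 were called lower and none higher, with a median log2 fold change of -0.98 and a summed level of 4262 to 6201 CPM in controls and 3291 to 6583 CPM with puberulic acid. With total-count scaling 2 of these 8 were called lower and 1 higher. Of 8 leukocyte markers, 6 could be tested and 3 (Ptprc, Cd68 and Itgam) were called higher, with a summed level of 59.2 to 106.7 CPM in controls and 105.7 to 238.2 CPM with puberulic acid. Ly6g, a neutrophil marker, was at 0 in all 10 libraries. The leukocyte count was 5 with total-count scaling and 5 without puberulic acid replicate 1. Fibroblast and pericyte markers were called higher in 3 of 4 cases (summed level 76.1 to 107.5 CPM in controls and 253.6 to 780.4 CPM with puberulic acid). Of 6 podocyte and endothelial markers 2 were called lower and none higher, a share near that of all tested genes (summed level 282.9 to 567.2 CPM in controls and 115.5 to 469.3 CPM with puberulic acid). That count was 0 with total-count scaling and 1 without control replicate 3, control replicate 4, control replicate 5 or puberulic acid replicate 3, each left out alone.

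Among relatives by role, Slc22a3 (OCT3) had 4 to 13 counts in the controls and 1 to 30 counts with puberulic acid, and Slc47a2 (MATE2) had 0 to 4 and 3 to 14 counts. Neither passed the filter. Slc22a21 (OCTN3), a carnitine carrier, averaged 2.88 ± 0.76 CPM in the PBS group and 4.13 ± 0.97 CPM in the treated group (SD, n = 5 per group), with a log2 fold change of 0.51 ± 0.23 that did not pass the test (SE, edgeR adjusted p = 0.0726). It was called higher with upper-quartile scaling (0.61), with total-count scaling (1.02) and without control replicate 3 (0.63). Slc22a21 is a close copy of Slc22a4 and Slc22a5. The submitters' notes name the program Salmon, and how well reads shared by the copies were divided was not tested.

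Among 16 further carriers of organic cations, choline and thiamine, Slc22a21 included, 11 were tested, 4 were called higher and 3 lower, with a median log2 fold change of 0.22 beside 0.05 over all tested genes. The background is 34.2% called higher and 31.1% called lower. The largest increases were those of Slc22a15, an orphan relative of the family, from 2.18 ± 0.61 to 11.6 ± 1.05 CPM (log2 fold change 2.40), and Abcb1b, a P-glycoprotein gene whose product exports lipophilic cations, from 7.00 ± 1.56 to 22.8 ± 4.38 CPM (log2 fold change 1.71), with SD over n = 5 per group. Some values beyond the naming rule follow, chosen after they were seen. The thiamine carriers went opposite ways: Slc19a3 fell by 2.10 on the log2 scale and Slc19a2 rose by 1.20. Abcb1a was called higher at 0.50 (edgeR adjusted p = 0.0411), a call that was lost with no filter and when any of 7 of the samples was left out, with adjusted p-values up to 0.131. Of the choline carrier genes Slc44a4 was lower at -1.47, while Slc44a1, Slc44a2 and Slc44a3 were at 0.01, 0.22 and 0.12 and were not called. These 3 genes stayed uncalled in 17, 13 and 16 of 18 alternative fits, in that order, and were called higher in the rest. With total-count scaling 8 of the 11 genes were called higher in place of 4.

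Of the enzymes that make it, Aldh9a1, which acts before the last step, fell from 617.3 ± 48.9 to 135.9 ± 42.3 CPM (SD, n = 5 per group), with a log2 fold change of -2.18 ± 0.17 (SE, edgeR adjusted p = 6.80e-07). Bbox1, the enzyme of the last step, had 3 to 32 counts in the controls and 0 to 9 counts with puberulic acid and was not tested, and Tmlhe is not analysed here. Of 7 genes of the carnitine shuttle and its acyltransferases, 6 were called lower and 1 higher, with a median log2 fold change of -1.20, beside 31.1% called lower, 34.2% called higher and a median of 0.05 over all tested genes. Cpt2, the inner mitochondrial carnitine palmitoyltransferase gene, fell from a mean of 209.3 to 62.8 CPM, with a log2 fold change of -1.74 ± 0.13 (SE, edgeR adjusted p = 3.68e-07). Cpt1a, its outer membrane counterpart, had 486.6 ± 32.2 CPM in controls and 218.8 ± 63.3 CPM after treatment (SD, n = 5 per group), at a log2 fold change of -1.15. Slc25a20, which moves acylcarnitine across the inner membrane, Crat and Crot, carnitine acyltransferase genes for shorter chains, stood at -1.20, -1.33 and -1.73. Cpt1c, the isoform best known from neurons, was the gene called higher, at 0.96 from a low level of 1.03 ± 0.25 CPM (SD, n = 5). Cpt1b at -0.88 lost its call with total-count scaling (adjusted p = 0.32) and when 5 of the samples were left out in turn. Slc22a5 at -2.52 thus had a lower value than all 7 shuttle genes; no test of that order was made.

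The third list held scaffold proteins and transcription factors tied to these transporters, and 8 of its 9 genes were called lower and 1 higher, with a median log2 fold change of -1.89. Over all tested genes 31.1% were called lower and 34.2% higher, and the median was 0.05. Pdzk1, whose PDZ-domain protein binds the tails of OCTN1 and OCTN2 in the brush border, fell from 1299 ± 123 to 212.1 ± 69.2 CPM (SD, n = 5 per group), with a log2 fold change of -2.61 ± 0.19 (SE, edgeR adjusted p = 3.37e-07). Of the remaining genes of this list, Pdzd3, Nherf1 and Ppara are given beyond the naming rule and were chosen after their values were seen. The related scaffold genes Pdzd3, Nherf1 and Nherf2 stood at -1.89, -1.13 and -0.72, and Nherf2 was not called with total-count scaling (-0.21, adjusted p = 0.374).

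The transcription factor genes of the list were lower with a single exception. Hnf4a, which maintains proximal tubule expression, stood at -2.05 ± 0.14 (SE, edgeR adjusted p = 2.47e-07) and went from 705.1 ± 44.4 to 170.1 ± 40.1 CPM (SD, n = 5 per group). Ppara, a regulator of Slc22a5 in mice, was at -1.90 ± 0.37 (SE, edgeR adjusted p = 0.000714), with overlapping groups, since control replicate 4 had 8.10 CPM and puberulic acid replicate 1 had 9.61 CPM. Runx1, a factor reported for the human SLC22A4 gene, was the gene that rose, from 1.06 ± 0.53 to 61.7 ± 12.9 CPM (SD, n = 5 per group), with a log2 fold change of 5.85 ± 0.28 (SE, edgeR adjusted p = 1.67e-08).

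**Figure D4:**
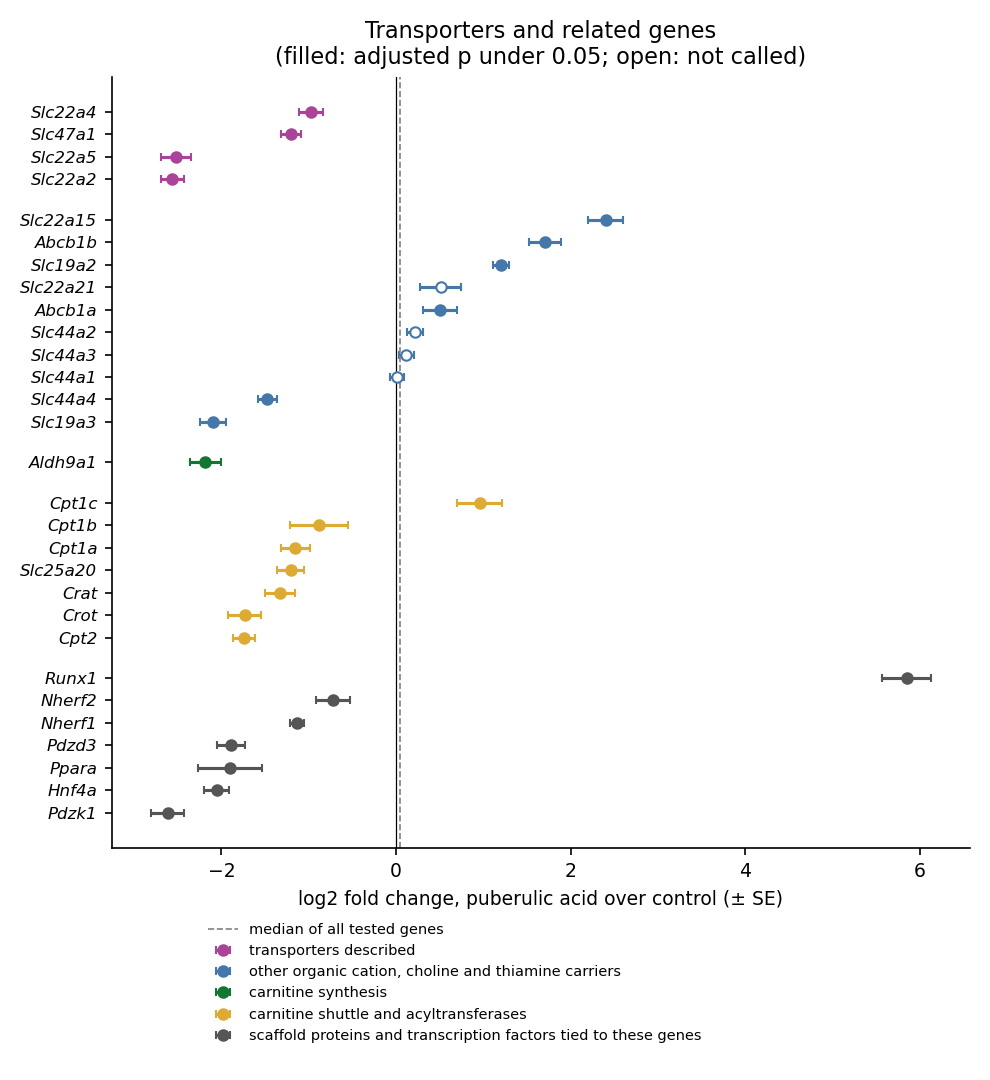
Log2 fold change of puberulic acid over control with its SE for the 4 transporters and the tested genes of the 4 lists that are reported here, filled where the adjusted p was under 0.05, with the median of all tested genes (0.05) as a dashed line. Most genes lie left of 0, Runx1 lies far right at 5.85, and the carriers in blue spread to both sides.

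Finally, the genes with the most similar profiles over the 10 samples were found among 10529 named genes with at least 5 CPM in controls, by the root mean square difference of log2(CPM + 1) relative to each gene's control mean. For Slc22a2 they were Agxt2 (0.09), Abhd14b (0.10) and Apeh (0.11), where the median gene was at 1.75. Slc22a5 was closest to Nox4 (0.16) and Apeh (0.17), with a median gene at 1.74. The nearest genes to Slc47a1 were Rilp (0.08), Lamtor4 (0.08) and Def8 (0.09), with a median gene at 0.85. Slc22a4 lay nearest to Hspd1 (0.08), Acsl3 (0.08) and Pctp (0.09), with a median gene at 0.70. Between the transporters themselves the same measure was 0.23 for Slc22a2 and Slc22a5 and 0.29 for Slc22a4 and Slc47a1, and 0.95 to 1.16 for the other 4 pairs, among them Slc22a4 and Slc22a5, whose GC-rich promoters are shown above.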

How the data were processed

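The deposited table holds estimated counts with fractions, 1 row per gene, and no normalization is stated. Per the submitters' processing notes, fastp 0.22.0, Salmon 1.10.3, DESeq2 and the build GRCm39 were used; the annotation release is not given in the sources used here. Libraries were poly(A) selected and strand-specific, per the labels' protocols. Symbols were matched for 51344 of 55822 identifiers. Columns were assigned to samples by name; 10 sample columns whose names do not show the supplement lot were not used. Within groups, counts of the 20 pairs of libraries differed beyond sampling noise (chi-square per gene 13.6 to 100.9).

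Estimated counts were rounded, filtered with filterByExpr, scaled with TMM and tested with edgeR 4.0.16 (glmQLFit, glmQLFTest) in R 4.3.3, with Benjamini-Hochberg adjustment over 16266 genes and a threshold of 0.05. Only the 10 control and puberulic acid libraries entered. SEs are the log2 fold change over the square root of F. CPM uses TMM-corrected library sizes. The labels number the samples of a group but do not tie each to its own mouse. Ratios were tested with scipy 1.17.1 over all 252 assignments, and 95% intervals hold the shifts that this test did not reject.

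All 4 transporters are reported whatever their values. In lists of more than 8 genes, values are given for the 2 highest and 2 lowest called log2 fold changes and for genes of the same direct role; Slc19a2, Slc44a1 to Slc44a4, Abcb1a, Pdzd3, Nherf1 and Ppara fall outside this rule and were chosen after their values were seen. For each transporter the 3 most similar profiles were found. Some genes these rules select are not reported here by name; they remain in the list counts. The transporters and lists were chosen with earlier results of these data known; the neighbouring genes and the marker-relative test were added later. Alternatives were RLE, upper-quartile and total-count scaling, 2 filters, DESeq2 1.42.0, a robust fit, a replicate block, a pseudocount of 5 CPM and each library left out.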

Additional observations from a re-analysis of the deposited data

Results flagged for a closer look

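In each group of 5, the per-sample values were screened for a highest or lowest sample separated from the next one by more than 0.71 of the whole range. This was so in 14 of 108 groups of values; chance flags about 1 in 20, or 5.4 of 108, and the groups here share samples.

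In 11 of the 14 the sample was puberulic acid replicate 1. It was the highest of its group for Slc22a5 (75.0 CPM, gap 0.724 of the range), Slc44a4 (48.7 CPM, 0.84), Aldh9a1 (211.3 CPM, 0.913), Crat (109.6 CPM, 0.748), Pdzk1 (331.6 CPM, 0.72) and Pdzd3 (39.3 CPM, 0.765). It was also the highest for the summed level of carnitine synthesis genes (211.6 CPM, 0.913), of the carnitine shuttle (804.7 CPM, 0.725), of proximal tubule markers (3150 CPM, 0.894) and of loop, distal tubule and collecting duct markers (6583 CPM, 0.726). Its Slc22a4 level relative to the proximal tubule markers was the lowest of the group, at -2.42 (gap 0.855). Slc22a2, Slc22a4 and Slc47a1 CPM held no sample past this limit.

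The remaining 3 were controls. Control replicate 1 had the highest Irf1 (169.5 CPM, 0.983), control replicate 2 the highest Aldh3a2 (266.2 CPM, 0.885), and control replicate 5 the lowest Slc22a2 relative to the proximal tubule markers (-1.40, 0.718).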

How the results depend on the processing

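The 4 transporters kept their direction and an adjusted p under 0.05 in all 18 alternative fits by edgeR or DESeq2. Their log2 fold changes ran from -2.70 to -2.06 for Slc22a2, -1.07 to -0.46 for Slc22a4, -2.72 to -2.01 for Slc22a5 and -1.31 to -0.70 for Slc47a1. Total-count scaling, which raises nearly every log2 fold change, called 9179 genes higher and 2526 lower in place of 5564 and 5058, or 78.4% of calls higher in place of 52.4%. With it the median log2 fold change became 0.73 for the further carriers (8 called higher), -1.68 for carnitine synthesis, -0.70 for the carnitine shuttle, -1.38 for scaffolds and factors, and 0.0716 in place of -0.45 for podocyte and endothelial markers, which reversed. Irf1 reversed from -0.18 to 1.74 without control replicate 1. Same-numbered samples did not deviate together (mean correlation -0.036, from -0.17 to 0.04; 0 of 5 controls correlated best with their own number). With the replicate block, 10325 genes were called in place of 10622, and the transporter calls stayed. For the pair ratios and the marker-relative values, the block leaves 5 pairs, so the exact sign-flip test cannot reach the threshold: the differences -1.62, -1.36, 1.58 and -1.32 (Slc22a2/Slc22a4, Slc22a2/Slc47a1, Slc22a4/Slc22a5, Slc22a5/Slc47a1) had an adjusted p of 0.0938, and 1.14, 2.75, 1.17 and 2.49 (Slc22a2, Slc22a4, Slc22a5 and Slc47a1 against the markers) one of 0.0625. Depth limits only genes near the filter, such as Slc22a3, Slc47a2 and Bbox1.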

Other observations

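Neighbouring genes on the chromosome, by RefSeq order (GRCm38.p6), had log2 fold changes in both directions. Slc22a5, Slc22a21 and Slc22a4 lie side by side, and Slc22a21 between them was at a log2 fold change of 0.51 (edgeR adjusted p = 0.0726) where its neighbours were at -2.52 and -0.98. Beyond Slc22a4, Pdlim4, which encodes a PDZ and LIM domain protein, rose from 1.24 ± 0.52 to 5.10 ± 1.26 CPM (SD, n = 5 per group; log2 fold change 2.04, edgeR adjusted p = 9.81e-05), and P4ha2, a collagen prolyl hydroxylase gene, rose by 0.47 (edgeR adjusted p = 0.0158). Near Slc22a2, Igf2r, a lysosomal sorting receptor gene, was at 0.20 and was not called (edgeR adjusted p = 0.135). Igf2r was called with upper-quartile (0.30) and total-count scaling (0.71). Near Slc47a1, Aldh3a2, a fatty aldehyde dehydrogenase gene, fell from 232.2 ± 19.1 to 95.1 ± 4.51 CPM (SD, n = 5 per group). Its log2 fold change was -1.29, and that of Slc47a1 itself -1.21.

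Irf1, an interferon response factor gene next to Slc22a5, had 169.5 CPM in control replicate 1 and 9.75 to 12.4 CPM in the other 4 controls, against 25.6 to 56.8 CPM with puberulic acid. Its log2 fold change was -0.18 (edgeR adjusted p = 0.852), and 1.74 without control replicate 1 (edgeR adjusted p = 5.52e-05). In that sample Slc22a5, at 279.5 CPM, lay within the range of the other controls.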
